A study of Mus musculus with 10 samples.

Results

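Distal H3K4me1 regions that lie inside H3K27me3 were mapped in Glast+ cells from retinas of C57BL/6 mice at postnatal day 28. Glast, the glutamate transporter encoded by Slc1a3, is carried by Müller glia, which span the retina and support its neurons. Chromatin immunoprecipitation and sequencing (ChIP-seq) of 4 histone H3 marks (H3K4me1, H3K4me3, H3K27me3 and H3K9me3) in 2 experiments, Exp1 and Exp2, gave 8 lists of enriched regions, called islands, on mm10. The cells carried no named allele or treatment and formed a single population, sorted on 1 marker, and the labels do not say how many animals were pooled. The regions were selected on islands of 3 of the marks, in 4 steps. H3K4me1 covered the same bases in both experiments in 33380 runs (119 Mb). Of these runs, 3255 lay wholly in bases covered by H3K27me3 in both experiments, and 1648 of those touched no H3K4me3 island of either experiment. The last step kept the 1024 regions that lay over 2.5 kb from any end of a protein-coding or lncRNA gene, and together they spanned 2.41 Mb. They are called embedded regions here. They made up 7.05% of the 14531 H3K4me1 runs that were distal and free of H3K4me3. Of the other distal regions, 762 lay partly in H3K27me3 or in that of 1 experiment, and 12745 touched no H3K27me3 island and are called H3K27me3-free regions.

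H3K4me1 is found at enhancers and around promoters, where MLL-family enzymes place it. H3K27me3 is placed by EZH1 and EZH2, the catalytic subunits of Polycomb repressive complex 2, and is known for covering developmental genes that are silent in a cell type. In embryonic stem cells, distal sites that carry both marks have been described as poised enhancers, which lie near genes of early development and gain activating marks when the gene is switched on. H3K9me3 is a mark of constitutive heterochromatin, satellite repeats and silenced gene clusters. Acetylation of H3K27, which would separate active from poised enhancers, was not analysed here.

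An H3K4me1 island and an H3K27me3 island on the same bases can come from the same nucleosomes, from different alleles or from different cells of the sort, and these cannot be told apart in bulk samples. H3K27me3 islands were called in windows of 5 kb and joined over gaps, with no 2 islands closer than 35 kb, whereas H3K4me1 islands were called in windows of 200 bp. A base inside an H3K27me3 island therefore need not itself be enriched. The H3K27me3 domains below are runs of bases covered in both H3K27me3 lists. Of 12 Müller glia markers, 11 had H3K4me3 at a gene end in both experiments. So did 5 of 7 rod markers and 2 of 4 ganglion cell markers, but none of 4 astrocyte, 4 microglia or 4 endothelium markers. The part of other cells in the regions was not tested. The files hold no read counts, so depth is unknown. With 2 experiments, an exact two-sided permutation test over samples cannot go below 0.333, so values are given with their spread and without a p.

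The sequences shown are promoters that lay in the same H3K27me3 domain as the embedded regions nearest to their gene, which is the promoter context of these regions. Each runs from 250 bases before to 50 bases after a transcription start in RefSeq (GRCm38.p6, the same assembly as mm10), 5′ to 3′ on the gene's strand, with every CpG in capitals. CpG-rich promoters are the ones that Polycomb commonly occupies. The Zmiz1 and Cbfa2t3 windows are at starts inside the gene. The first 3, on chr11:114066980-114067279 (minus strand), chr14:25458935-25459234 (plus) and chr8:122678126-122678425 (minus), carried H3K4me3 in both experiments. The fourth, on chr17:13354322-13354621 (plus), carried none and is the promoter of Tcp10c, whose domain is also covered by H3K9me3.
Sdk2: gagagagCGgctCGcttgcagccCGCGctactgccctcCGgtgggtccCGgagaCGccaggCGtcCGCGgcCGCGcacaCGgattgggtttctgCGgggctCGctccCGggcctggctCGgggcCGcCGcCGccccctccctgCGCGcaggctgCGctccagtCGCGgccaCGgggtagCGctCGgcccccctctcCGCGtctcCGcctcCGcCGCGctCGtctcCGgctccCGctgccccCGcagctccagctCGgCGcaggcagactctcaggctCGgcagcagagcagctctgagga
Zmiz1: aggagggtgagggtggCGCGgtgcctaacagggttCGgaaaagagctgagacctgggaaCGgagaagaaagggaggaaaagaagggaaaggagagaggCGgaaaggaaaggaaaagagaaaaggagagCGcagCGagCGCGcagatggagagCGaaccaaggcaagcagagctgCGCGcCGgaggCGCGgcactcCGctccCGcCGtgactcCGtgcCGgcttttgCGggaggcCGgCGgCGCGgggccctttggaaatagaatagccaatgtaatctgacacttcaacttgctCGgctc
Cbfa2t3: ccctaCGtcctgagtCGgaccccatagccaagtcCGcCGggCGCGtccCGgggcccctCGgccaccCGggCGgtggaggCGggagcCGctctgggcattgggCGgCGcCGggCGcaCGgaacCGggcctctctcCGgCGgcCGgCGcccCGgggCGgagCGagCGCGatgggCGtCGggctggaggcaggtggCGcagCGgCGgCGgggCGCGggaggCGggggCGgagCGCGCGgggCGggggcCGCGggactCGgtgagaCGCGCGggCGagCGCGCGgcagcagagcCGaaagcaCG
Tcp10c: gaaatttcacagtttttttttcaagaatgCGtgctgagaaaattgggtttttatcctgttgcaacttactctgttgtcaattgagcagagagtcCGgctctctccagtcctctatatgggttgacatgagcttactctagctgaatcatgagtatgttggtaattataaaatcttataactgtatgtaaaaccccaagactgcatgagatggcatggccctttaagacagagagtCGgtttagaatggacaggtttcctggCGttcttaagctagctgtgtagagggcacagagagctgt
These 4 windows held 41, 26, 53 and 4 CpG. In RefSeq's 32851 promoter windows of the same length, 3.46%, 16.9%, 0.451% and 68.6% held at least as many. One embedded region of 3.2 kb in Zmiz1, at chr14:25533801-25537000, also contained a microRNA gene, Mir3075. Its mature product from chr14:25534491-25534511 (plus strand, RefSeq) is shown with the seed, bases 2 to 8, in capitals.
mmu-miR-3075-3p: aUCCUUGGccuuccuaggugu
Another embedded region overlapped Mir1942, so 2 of the 1024 regions (0.195%) overlapped a microRNA gene, against 29 H3K27me3-free regions (0.228%).

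The promoters that shared a domain with embedded regions of their gene were CpG-rich for H3K27me3 territory. Of the 596 protein-coding genes nearest to an embedded region, 438 had a promoter window. A total of 267 of these genes started in the same domain as their region, with 344 windows. The nearest gene had a promoter window for 756 of the 1024 embedded regions, and it started in the same domain for 465 of these. Regions without such a window could not be placed. The 344 windows held a median of 17 CpG, and 64.0% held 10 or more. The 3843 windows of other genes that started in H3K27me3 held a median of 3 CpG, and 28.1% held 10 or more. These other genes were not split by family, and 971 olfactory and vomeronasal receptor genes had H3K27me3 at an end. H3K4me3 covered 48.8% of the promoters that shared a domain with an embedded region and 23.1% of the other promoters in H3K27me3. The 5085 windows of genes nearest to H3K27me3-free regions held a median of 20 CpG, 72.7% held 10 or more, and 77.3% carried H3K4me3. Over all protein-coding genes the median was 13 CpG, 56.8% held 10 or more and 58.7% carried H3K4me3.

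The embedded regions were narrower than H3K27me3-free regions, and their islands ranked lower. Their median width was 2.0 kb, with quartiles of 1.4 and 2.8 kb, against 2.6 kb, with quartiles of 1.8 and 3.8 kb, in H3K27me3-free regions. The widest embedded region spanned 21.4 kb, and the widest H3K27me3-free region 41.4 kb. Islands were ranked within each list by the authors' p-value, so that a low percentile is a small p. The H3K4me1 islands under embedded regions had a median percentile of 40.7 in Exp1 and 57.2 in Exp2, against 18.7 in Exp1 and 44.6 in Exp2 under H3K27me3-free regions. The island under an embedded region was 3.2 kb wide in Exp1 and 2.6 kb in Exp2 at the median, against 5.8 kb in Exp1 and 3.0 kb in Exp2 under H3K27me3-free regions. In Exp1 7 embedded regions and in Exp2 13 rested on an H3K4me1 island whose deposited p-value exceeded 0.05. These widths and ranks come from islands that the selection used, so they describe the regions.

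How often an island was found again in the other experiment depended on the experiment and on H3K9me3. Within Exp2 alone, 3044 distal islands lay inside H3K27me3, and 43.9% of them met an H3K4me1 island of Exp1, against 91.3% of the 13821 islands that touched no H3K27me3. Within Exp1 alone, 3029 lay inside, and 39.1% met an island of Exp2, against 35.9% of 25926 outside. The mean of the 2 directions was 41.5% ± 3.42 inside H3K27me3 and 63.6% ± 39.2 outside it (SD). Both directions read the same overlap of Exp1 with Exp2, so this SD is not a spread between replicates. The lists also differed in size, with 52342 H3K4me1 islands over 251 Mb in Exp1 and 37200 over 143 Mb in Exp2. In Exp2, 83.2% of the inside islands that were not found in Exp1 overlapped H3K9me3, against 8.003% of those that were found. In Exp1 the shares were 24.2% of those not found in Exp2 and 16.0% of those found. Requiring both experiments therefore removed most of the Exp2 islands inside H3K27me3 that lay in H3K9me3.

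H3K9me3, which played no part in the selection, was rare at embedded regions relative to the H3K27me3 territory around them, and common relative to other distal regions. It overlapped 86 embedded regions (8.40%) in both experiments, 79 of them wholly, against 23 H3K27me3-free regions (0.18%), while 1.02% of all distal regions overlapped it. By experiment the share of embedded regions was 12.4% in Exp1 and 9.67% in Exp2, and that of H3K27me3-free regions was 0.942% in Exp1 and 0.314% in Exp2. The means were 11.04% ± 1.93 for embedded and 0.628% ± 0.444 for H3K27me3-free regions (SD, n = 2 H3K9me3 lists). The regions were the same for both lists, so this SD leaves out the spread from building the regions. The H3K27me3 territory open to the selection, meaning bases over 2.5 kb from gene ends and free of H3K4me3, spanned 402 Mb. H3K9me3 covered 66.2% of it in both experiments, 73.2% in Exp1 and 68.4% in Exp2. With regions built from 1 experiment alone, the H3K9me3 share of embedded regions was 20.96% in Exp1 and 50.2% in Exp2 (SD 20.7). That of H3K27me3-free regions was then 1.52% in Exp1 and 2.03% in Exp2.

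**Figure D1:**
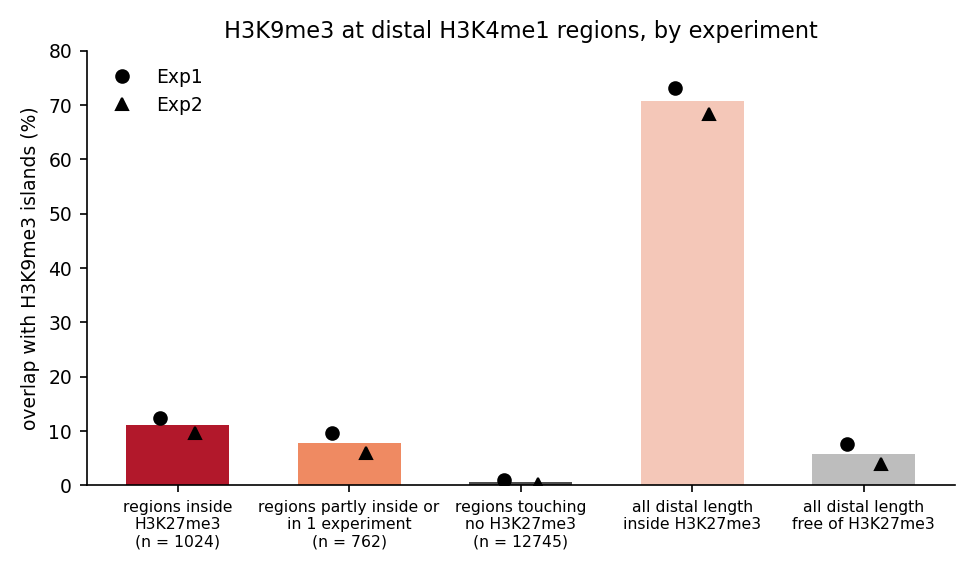
Overlap with H3K9me3 islands in percent: the left 3 bars give the share of regions touched by an H3K9me3 island, and the right 2 bars the share of distal length covered by one. Circles are Exp1, triangles Exp2, and bars their mean; embedded regions sit at 12.4% and 9.67%, far below the 73.2% and 68.4% of the distal H3K27me3 length.

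Outside the H3K9me3 shared by both experiments, embedded regions lay nearly as densely in H3K27me3 as H3K4me1 regions did elsewhere. These densities do not separate gene bodies from the space between genes, for which values follow below. H3K27me3 territory held 2.55 embedded regions per Mb, against 7.65 H3K27me3-free regions per Mb in the 1667 Mb of distal bases without H3K27me3. In the part of the H3K27me3 territory without shared H3K9me3 the density was 6.92 embedded regions per Mb. It was 7.84 H3K27me3-free regions per Mb in the matching part outside. Bases with H3K9me3 in 1 experiment count in these parts. Within H3K9me3 the densities were 0.323 per Mb inside H3K27me3 and 0.526 per Mb outside it. Within each experiment the density inside H3K27me3 was also lower in H3K9me3, with 1.48 per Mb in H3K9me3 and 11.9 per Mb without it in Exp1, and 5.31 and 8.96 per Mb in Exp2. The density outside H3K27me3 was not taken by experiment.

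Genes hosted fewer of the embedded regions. Of the 1024, 499 (48.7%) lay in a protein-coding gene, against 9966 (78.2%) of H3K27me3-free regions and 74.8% of all distal regions. Gene bodies made up 17.2% of the distal H3K27me3 territory and 45.3% of the distal territory without H3K27me3. Per Mb of gene body there were 7.24 embedded regions, against 13.2 H3K27me3-free regions, and between genes 1.58 embedded against 3.05 H3K27me3-free regions. A lncRNA gene was overlapped by 103 embedded regions (10.1%), against 691 H3K27me3-free regions (5.42%) and 5.92% of all distal regions. The nearest end of a protein-coding or lncRNA gene was a median of 12.0 kb away from embedded regions and 16.6 kb from H3K27me3-free regions. With each experiment alone this order held in Exp1, at 17.5 kb for embedded and 19.2 kb for H3K27me3-free regions, and turned round in Exp2, at 17.97 kb for embedded and 17.1 kb for H3K27me3-free regions. The end of the nearest or host protein-coding gene was 24.4 kb away from embedded and 25.6 kb from H3K27me3-free regions. A total of 34 embedded regions (3.32%) lay over 100 kb from every end of a protein-coding or lncRNA gene, against 4.88% of H3K27me3-free regions. The regions next to the 2.5 kb limit lay 2.506 to 2.551 kb from an end for the nearest 5 kept, and 2.436 to 2.498 kb for the nearest 5 left out.

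The H3K27me3 domains that held embedded regions were wider, more often gene-bearing and less covered by H3K9me3 than the others. That they were a minority follows from 1024 regions in 4262 domains, and a wider domain has more room for a region. Of 4262 domains, 505 (11.8%) held at least 1 embedded region. These spanned 78.0 Mb of 467 Mb and had a median width of 95 kb, against 60 kb for domains without one. H3K9me3 shared by both experiments covered 24.6% of the length of domains with an embedded region and 72.2% of the others. The shares were 30.9% in Exp1 and 26.0% in Exp2 with an embedded region, against 79.1% in Exp1 and 74.5% in Exp2 without. No base with H3K9me3 in both experiments lay in 334 domains (66.1%) with an embedded region and 689 (18.3%) of the others. H3K9me3 of 1 experiment could still lie in them, as in the Prdm16 domain, with 12 kb in Exp1 alone. An H3K4me3 region seen in both experiments lay in 309 (61.2%) of the 505 domains with an embedded region and in 24.5% of the 3757 without one. An end of a protein-coding gene lay in 72.3% of domains with an embedded region and in 33.6% of those without. Such ends numbered 24.6 per Mb with and 18.04 per Mb without.

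H3K9me3 was less frequent in domains with an embedded region in each of 4 width classes. Here H3K9me3 and H3K4me3 counted as present only on bases covered in both experiments. Among domains up to 30 kb wide, H3K9me3 was present in 36.2% of those with an embedded region and 79.7% of those without. Between 30 and 100 kb it was present in 26.8% of domains with an embedded region and 78.7% of those without. Between 100 and 300 kb the shares were 36.6% with and 86.5% without, and over 300 kb 51.9% with and 98.4% without. H3K4me3 was more frequent with an embedded region in each class. It was present in 46.8% of the narrowest domains with an embedded region, against 23.0% without, and in 73.1% of the widest with one, against 52.2% without. An end of a protein-coding gene lay in 40.4% of the narrowest with an embedded region, against 19.3% without. For the widest the shares were 94.2% with an embedded region and 87.6% without. The H3K27me3 islands that held embedded regions were wider and ranked higher by the authors' p-value than others, which is a description of islands that the selection used. Their median width was 125 kb in Exp1 and 130 kb in Exp2, against 45 kb in Exp1 and 75 kb in Exp2 for islands without one. Their median percentile was 20.4 in Exp1 and 25.5 in Exp2, against 51.5 in Exp1 and 52.8 in Exp2 for islands without one.

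Within their domains the regions were placed about evenly between border and centre. A single embedded region was found in 293 domains, whereas 46 domains held 5 or more and together had 318. A total of 340 regions (33.2%) lay within 10 kb of another. The median distance from the middle of an embedded region to the nearer border was 29.4 kb. For the distal bases of the same domains, with each domain weighted by its number of embedded regions, it was 29.1 kb. Under 5 kb, which is 1 window of the H3K27me3 calls, lay 9.38% of embedded regions and 10.9% of the weighted distal length. Under 20 kb lay 37.4% of embedded regions and 37.8% of the weighted length, and under 100 kb 88.0% of embedded regions and 87.8% of the weighted length. Without the weights, a few very wide domains supply much of the length, and its median distance was 50.6 kb.

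**Figure D2:**
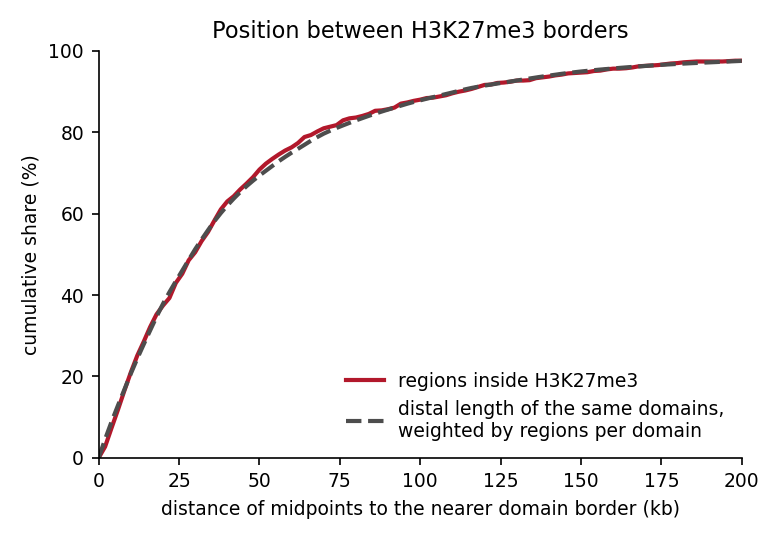
Cumulative share, in percent, of embedded regions (solid) and of the distal length of the same 505 domains, each weighted by its number of embedded regions (dashed), against the distance of midpoints to the nearer domain border in kb. The curves run close together, with a median of 29.4 kb for embedded regions and 29.1 kb for the weighted length.

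The domain with the most embedded regions lay over the 5′ part of Sdk2 and beyond it, at chr11:113910001-114260000 (350 kb). Sdk2 encodes sidekick-2, an immunoglobulin-family adhesion molecule that matches synaptic partners in the retina. It was nearest to 15 embedded regions, 14 of them in the gene, 1.4 to 5.8 kb wide and 41.2 kb in sum. Over the domain H3K4me1 covered 107 kb in Exp1 and 62.2 kb in Exp2, H3K4me3 8.6 and 6.4 kb, and H3K9me3 9 and 12 kb. H3K27me3 covered all of it in both experiments, and H3K4me3 and H3K27me3 met at 1 end of the gene.

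**Figure D3:**
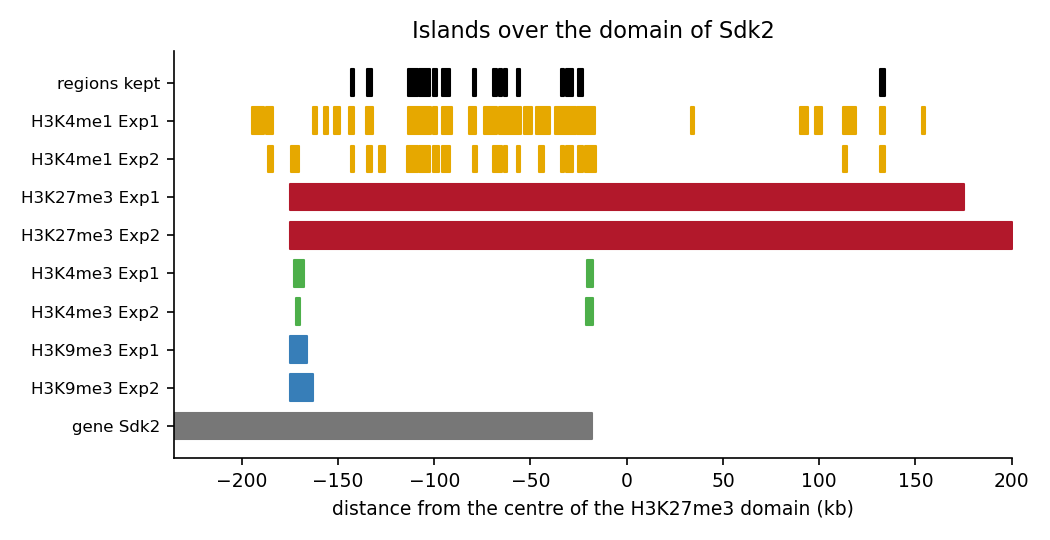
Islands of each mark and experiment over the Sdk2 domain, in kb from its centre, with the embedded regions on top and the gene at the bottom. The 15 embedded regions are bases shared by the H3K4me1 tracks that avoid H3K4me3 and gene ends, and 14 of them fall within Sdk2.

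The other domains with the most embedded regions bore genes of varied function. At chr19:7065001-7195000 (130 kb), 14 embedded regions summed to 45.4 kb. Flrt1, a leucine-rich repeat adhesion molecule, was nearest to 9 of them, and Macrod1, an ADP-ribose hydrolase whose gene spans that of Flrt1, to the other 5. H3K4me1 there covered 90 kb in Exp1 and 66.6 kb in Exp2, and no H3K9me3 was present. At chr9:61260001-61760000 (500 kb), 12 regions lay around Tle3, a Groucho-family corepressor, which was nearest to 8 of them. At chr4:154295001-154855000 (560 kb), 11 regions lay in and around Prdm16, a zinc-finger transcription factor known from brown fat and stem cells, and 9 were in the gene.

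At chr11:118490001-118720000 (230 kb), all 11 regions were nearest to Rbfox3, the splicing factor known as NeuN in neurons. That domain held no end of a protein-coding gene. With the regions of a second domain Rbfox3 had 14, more than any gene but Sdk2. At chr9:56500001-56820000 (320 kb), 7 regions had Lingo1, which encodes a co-receptor of the Nogo receptor, as their nearest gene. A pair of domains held 9 regions each. The one at chr8:122625001-122770000 (145 kb) covered Cbfa2t3, a corepressor of the ETO family. The one at chr5:111705001-112050000 (345 kb), between Cryba4 and Mn1, had no H3K4me3 and no end of a protein-coding gene, though an end of a lncRNA gene lay inside it. The tenth, at chr5:120205001-120480000 (275 kb), had 8 regions near Rbm19 and Lhx5, a LIM-homeobox gene. Of these domains, those of Flrt1, Tle3, Rbfox3, Lingo1, Cbfa2t3, Cryba4 and Lhx5 had no H3K9me3 in either experiment.

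The domain of Tcp10c and Tcte2, testis genes of the t-complex, went against this pattern. At chr17:13305001-13595000 (290 kb), H3K27me3 covered the whole domain and H3K9me3 261 kb of it in each experiment. It held 13 embedded regions, all in H3K9me3. H3K4me1 covered 119.4 kb in Exp1 and 192.6 kb in Exp2, so that it was higher in Exp2 there and higher in Exp1 over the Sdk2 domain. H3K4me3 covered 7 and 10.4 kb. The Tcp10 genes are near-identical copies, so reads cannot be assigned to 1 of them with certainty. The 13.6 kb embedded region near Tcp10c, at chr17:13448201-13461800, had an authors' H3K4me1 p-value of 0.0056 in Exp1 and 2.03e-07 in Exp2. Without this domain, 7.22% of 1011 embedded regions overlapped H3K9me3. The 86 regions in H3K9me3 of both experiments lay in 63 domains, and 25.6% of them were in a protein-coding gene, against 50.9% of the other 938. After Tcp10c with 12, the gene with most of them was Unc93a2 with 3.

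The widest embedded regions lay in or beside some of the same genes. A pair of the 10 widest were in Zmiz1, a PIAS-like transcriptional coregulator. They were a run of 21.4 kb at chr14:25473001-25494400, within an Exp1 island of 48.6 kb and filling an Exp2 island of 21.4 kb, and a run of 10 kb at chr14:25507601-25517600. The 8 regions in Zmiz1 summed to 50.2 kb, and H3K4me1 covered 86.2% of the gene in Exp1 and 69.2% in Exp2. H3K27me3 covered 48.9% of Zmiz1 in Exp1 and 41.7% in Exp2. A run of 15.2 kb lay in Tmem104, at chr11:115222201-115237400, and one of 12.8 kb near Cbfa2t3, at chr8:122709201-122722000. Others were 11.4 kb in the calcium channel gene Cacna1h, 10.6 kb in the microtubule-binding Map6, 9.6 kb in Zfhx3, 9.0 kb in the olfactomedin Olfm1 and 8.6 kb in the glutamate receptor gene Grm4. Of these 10, only the region near Tcp10c overlapped H3K9me3 shared by both experiments. The Zfhx3 region lay 0.4 kb from the border of a domain of 25 kb.

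Across the genome, 596 protein-coding genes were nearest to an embedded region, taking the host gene where there was one. A total of 400 genes had 1 region, and 32 genes with 5 or more had 222. For 977 regions the nearest gene end pointed to the same gene. Genes high in this count included the cadherin Cdh22 with 10 regions and Camta1, a calmodulin-binding transcription activator, with 9. Cryba4, a lens crystallin, had 8, none of them in the gene and 28.5 to 331.5 kb from its end. Zfhx3, Auts2, the proteoglycan gene Spock1, Ajap1 and the ligand gene Wnt7b had 6 each. Srcin1, the urate transporter gene Slc22a12 and the lipase gene Abhd2 had 5 each. Those of Srcin1 and Abhd2 lay in the gene, and those of Slc22a12 lay 54.1 to 117.3 kb from its end. H3K27me3 covered 24.3% of the 802 kb of Camta1 in Exp1 and 51.1% in Exp2, with H3K4me3 but no H3K27me3 at its ends. In Prdm16, Flrt1, Lingo1 and Cbfa2t3, H3K27me3 covered 100% of the gene in both experiments.

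Most embedded regions were nearest to a gene with H3K27me3 at its own ends. For 400 regions (39.1%) H3K4me3 and H3K27me3 islands met at 1 end of the gene, against 3.07% of H3K27me3-free regions and 6.51% of all distal regions. For 342 (33.4%) the gene ends had H3K27me3 and no H3K4me3, against 1.11% of H3K27me3-free and 3.85% of all distal regions. For 205 (20.02%) they had H3K4me3 alone, against 82.3% of H3K27me3-free and 76.3% of all distal regions. Since the regions were chosen by lying in H3K27me3, and 710 of them had an end of their gene in the same domain, the H3K27me3 part of these shares is largely fixed by the choice. Counted by gene, 201 of 596 had both marks at 1 end, 216 had H3K27me3 alone at their ends and 124 H3K4me3 alone. Either outer end of the gene counted, and starts inside the gene did not. Cbfa2t3 was therefore counted under H3K27me3 alone, though its start inside the gene, shown above, carried H3K4me3.

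**Figure D4:**
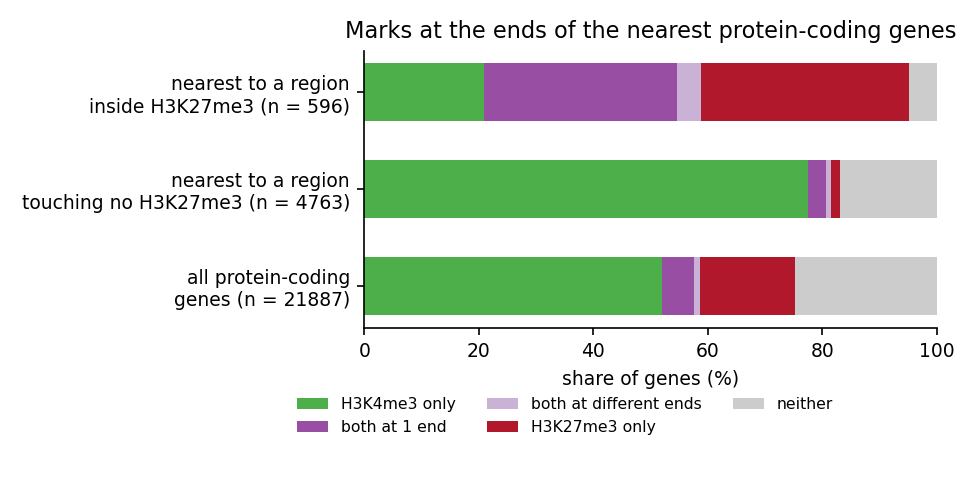
Share of protein-coding genes, in percent, by marks within 1 kb of their ends in both experiments, for genes nearest to embedded regions, genes nearest to H3K27me3-free regions, and all protein-coding genes. H3K4me3 without H3K27me3 marked 20.8% of the genes nearest to embedded regions, 77.5% of those nearest to H3K27me3-free regions and 51.9% of all.

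Genes of transcription factors that pattern the embryo were the nearest genes of many embedded regions, some of them far away. Homeobox genes other than Hox were nearest to 56 (5.47%), against 56 H3K27me3-free regions (0.439%) and 0.908% of all distal regions. These 56 regions belonged to 34 of 114 genes and none overlapped H3K9me3 shared by both experiments. Zfhx3 had 6, all in the gene and 63.0 to 236.6 kb from an end, and its ends were marked by neither H3K4me3 nor H3K27me3. Msx2, Pax7 and Pax2 had 3 each, at 91.2 to 126.8, 10.9 to 23.7 and 4.0 to 11.2 kb from an end. Homeobox genes also have much H3K27me3 of their own, and 91 of the 114 carried it at an end. Measured by the nearest gene end, they took 2.01% of the distal H3K27me3 length and 5.76% of the embedded regions. With each experiment alone, homeobox genes were nearest to 4.75% of embedded regions in Exp1 and 2.497% in Exp2, against 0.528% of H3K27me3-free regions in Exp1 and 0.528% in Exp2. Genes of the Sox, Fox, Tbx, Gata and Zic families were nearest to 17 regions (1.66%), against 0.212% of H3K27me3-free and 0.365% of all distal regions, and took 1.16% of the distal H3K27me3 length. Sox1 had 4 of them, 27.8 to 46.0 kb from the gene, and Foxl1 and Tbx20 had 2 each. Hox genes were all marked by H3K27me3, and no distal H3K4me1 region of any class was nearest to one, a background of 0%. Their share of the distal H3K27me3 length was 0.113%, at which a count of 1024 would hold few or none. With each experiment alone, 3 embedded regions in Exp1 and 1 in Exp2 were nearest to a Hox gene.

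**Figure D5:**
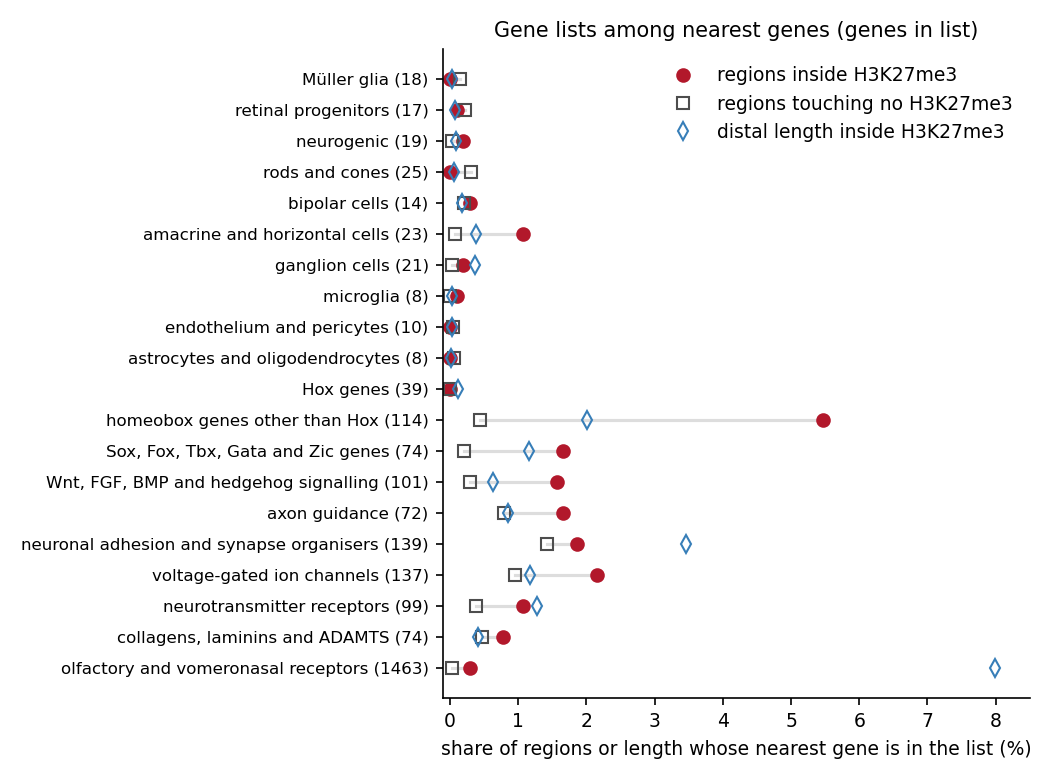
Share, in percent, of embedded regions (filled circles) and of H3K27me3-free regions (squares) whose nearest gene belongs to each list, with the share of distal H3K27me3 length nearest to the list (diamonds). Regions count for their host gene where there is one, and length for the nearest gene end; by the nearest gene end, homeobox genes take 5.76% of embedded regions against 2.01% of the length, and olfactory and vomeronasal receptors 0.293% against 7.99%.

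Lists of signalling genes and of genes of neuronal wiring held 11 to 22 regions each. Wnt, FGF, BMP and hedgehog genes were nearest to 16 regions (1.56%), against 0.290% of H3K27me3-free and 0.385% of all distal regions. Wnt7b had 6, Wnt4 had 3 and Bmp7 had 2, at 3.82 to 43.0, 48.4 to 78.6 and 78.4 to 138.8 kb from an end. Axon guidance genes were nearest to 17 regions (1.66%), against 0.785% of H3K27me3-free and 0.84% of all distal regions, among them the receptor genes Plxna1 and Unc5a and the ligand gene Slit3 with 3 each. Voltage-gated ion channels were nearest to 22 (2.15%), against 0.957% of H3K27me3-free and 1.25% of all distal regions, over 16 genes, with Kcnip1 at 3 and Cacna1h at 2. Neurotransmitter receptors were nearest to 11 (1.07%), against 0.377% of H3K27me3-free and 0.44% of all distal regions, of which Grm4 had 5 and the kainate receptor gene Grik3 had 3. As the receptors took 1.27% of the distal H3K27me3 length, their share was no larger than their share of territory. Adhesion and synapse organisers were nearest to 19 (1.86%), against 1.43% of H3K27me3-free and 1.49% of all distal regions, and Cdh22 alone had 10 of these. In Exp1 alone the order turned round, with 1.95% of embedded and 2.08% of H3K27me3-free regions. They took 3.47% of the distal H3K27me3 length. Collagens, laminins and ADAMTS genes were nearest to 8 (0.781%), against 0.463% of H3K27me3-free and 0.516% of all distal regions.

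Olfactory and vomeronasal receptors, large clustered families that are silent outside sensory neurons, had few embedded regions for their H3K27me3. Their 1463 genes took 7.99% of the distal H3K27me3 length, and 971 of them had H3K27me3 at an end. They were nearest to 3 embedded regions (0.293%), against 3 H3K27me3-free regions (0.0235%) and 0.0482% of all distal regions. These 3 were near Olfr287, Vmn1r159 and Olfr63, and the one near Vmn1r159 lay in H3K9me3. With each experiment alone the share was 0.528% of embedded regions in Exp1 and 4.80% in Exp2.

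Among the lists of retinal cell type genes, the one for amacrine and horizontal cells had the most embedded regions. Its genes were nearest to 11 (1.07%) over 7 of 23 genes, against 9 H3K27me3-free regions (0.0706%) and 0.158% of all distal regions. They took 0.378% of the distal H3K27me3 length. With each experiment alone the share of embedded regions was 1.09% in Exp1 and 0.493% in Exp2, against 0.108% and 0.0868% of H3K27me3-free regions. Pax2 and Onecut3 had 3 each and Barhl2 and Tfap2c 1 each. Of these 11 regions, 8 were nearest to a gene that is also on the homeobox list, Pax2, Onecut3, Barhl2 or Lhx1, and were counted there too. Pax2 is a marker of optic nerve astrocytes and is among the astrocyte markers used here, so its 3 regions need not concern amacrine or horizontal cells. Neurogenic genes were nearest to 2 regions, near Neurog1 and Neurog2, against 0.0413% of all distal regions. Ganglion cell genes were also nearest to 2 (0.195%), near Pou4f2 and Pou4f3, against 0.0413% of all distal regions and 0.368% of the distal H3K27me3 length. Bipolar genes were nearest to 3, of which Lhx4 had 2 and Bhlhe23 had 1, against 0.213% of all distal regions. Progenitor genes were nearest to 1, near Sox8, also against 0.213%. The microglia list had 1, near C1qa, which was the list's only distal region of any class, so that the list's share of all distal regions was 0.00688%.

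No embedded region was nearest to a gene of the Müller glia list, against 18 H3K27me3-free regions and 0.124% of all distal regions. The same held for rods and cones, against 40 H3K27me3-free regions and 0.282% of all distal regions. Genes of endothelium and pericytes had none, against 6 H3K27me3-free regions and 0.0413% of all distal regions, and those of astrocytes and oligodendrocytes none, against 8 H3K27me3-free regions and 0.0619% of all distal regions. That last list does not hold Pax2, and the 4 astrocyte markers, which do, were nearest to 3 embedded regions, all near Pax2. These lists are short, and at the share of all distal regions a count of 1024 would hold few or none of them. The Müller glia genes took 0.0318% and the rod and cone genes 0.0622% of the distal H3K27me3 length.

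Of 16 genes looked up singly, Neurog2 and Pou4f2 had an embedded region. Neurog2, a proneural factor of retinal progenitors, had a region of 1.8 kb at chr3:127639401-127641200, 3.77 kb from the gene, in a domain of 20 kb. Its H3K4me1 islands were 2.2 kb in Exp1 and 1.8 kb in Exp2, and H3K4me3 and H3K27me3 islands met at 1 end of Neurog2. Pou4f2, a factor of ganglion cell differentiation, had a region of 1.0 kb at chr8:78419601-78420600, 12.4 kb from the gene, in a domain of 30 kb, and its ends had H3K27me3 alone. Sox9 and Otx2, by contrast, had 6 and 8 H3K27me3-free regions and no embedded one. Slc1a3 had 2 H3K27me3-free regions, and Sox2 and Pax6 1 each. Glul, Rlbp1, Aqp4, Atoh7, Nrl, Crx, Pou4f1, Tfap2a and Onecut1 had no distal region.

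The regions were spread unevenly over the chromosomes. Chromosomes 4, 11 and 5 had the most, with 121, 114 and 110. These were 11.2%, 9.83% and 10.9% of the distal regions of each chromosome, against 7.05% over all chromosomes. Chromosomes 19 and 17 had similar shares, at 10.4% and 9.68%. Per Mb of H3K27me3, chromosome 11 had 6.45, chromosome 19 had 4.20 and chromosome 5 had 3.93. The X chromosome had 1 embedded region in 47.2 Mb of H3K27me3 (0.0212 per Mb), and 44 H3K27me3-free regions. It had only 48 distal regions of any class, of which 2.08% were embedded.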

How the data were processed

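ChIP-seq islands of 4 marks in 2 experiments were used, 8 libraries in all. The 2 input libraries were not analysed here. The tools named are SICER, BWA 0.7.5a, bedtools 2.17, SAMtools 1.3.1 and FastQC, and the build is mm10, per the submitters' processing notes. Each immunoprecipitation took chromatin from 25000 cells, and libraries were read from 1 end for 50 bp, per the labels' protocols. The authors deposited 1 island list per library with a p-value per island. It is not stated whether this is a p or a q, nor which control was used. These are the authors' values, used only to rank and filter islands within a list.

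Islands were intersected base by base (Python 3.11.15, numpy 2.4.6, pandas 2.3.3), with an overlap of 1 bp or more counting, and the selection was tested on simulated data, where 20 of 20 simulations matched. Gene ends came from RefSeq (21887 protein-coding and 12727 lncRNA genes, GRCm38.p6). A gene end was marked when an island lay within 1 kb in both experiments. Territory was counted in bins of 200 bp, by nearest gene end. The regions and the 20 gene lists were chosen with earlier results of these data known, and no test was run over regions or genes.

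Named were the 20 genes with the most regions, the 10 domains with the most, the 10 widest regions, up to 4 genes per list and 16 genes looked up singly, with ties broken by summed region length for genes and by width for domains. Macrod1, Tcte2, Mn1, Rbm19, Unc93a2, Mir3075 and Mir1942 were chosen after their values were seen. The experiment number came from the labels, which do not say that it marks shared animals, so the spread between experiments may be technical. Alternatives are each experiment alone, a replicate block, and other p-values, distances, widths, overlaps, chromosomes and gene sets.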

Additional observations from a re-analysis of the deposited data

How the results depend on the processing

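The number of embedded regions moved by about as much with the p-value of the islands as with requiring both experiments. With 1 experiment alone there were 3029 to 3044 regions in 1316 to 1421 domains. The share of distal regions was then 10.4 to 17.9%, the H3K9me3 share 20.96 to 50.2%, the share in genes 34.3 to 39.7% and the median distance from a gene end 17.5 to 17.97 kb. In the replicate block, where each experiment was built from its own marks, the means were 3036.5 regions, 14.2%, 35.6%, 37.0%, 1368.5 domains and 17.8 kb. Of the single-experiment regions, 670 in Exp2 and 435 in Exp1 kept the start of an embedded region. Keeping the islands of each list whose p-value did not exceed that list's median gave 319 regions in 195 domains, at 11.6 kb. H3K27me3 of either experiment gave 1707 in 777, at 13.4 kb. A limit of 10 kb gave 584 in 328, at 24.6 kb. The median distance was 9.89 kb with a limit of 1 kb, 16.4 kb with 5 kb and 24.1 kb with protein-coding ends only. The other alternatives moved these counts by under 1.5 times. Contrasts with H3K27me3-free regions were rerun only within each experiment, an alternative chosen after seeing the data, and those of the distance from a gene end, of bipolar genes and of collagens (Exp2) and of adhesion and progenitor genes (Exp1) turned round. The cause of these shifts was not tested beyond what each alternative changes by construction. The H3K9me3 share was lower than that of the territory in each experiment alone, though in Exp2 the gap was small (50.2 against 62.9%).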
